A study of Mus musculus with 15 samples.

Results

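The genes described here are the cytochromes P450 of families 1 to 3, the haem enzymes with which the liver oxidises drugs, carcinogens, steroids and fatty acids. They were chosen by name alone, as every gene symbol of the array that begins with Cyp, carries the family number 1, 2 or 3 and ends with a subfamily letter and a member number. This gave 53 of the 22032 gene symbols. By subfamily they were 2 Cyp1a, 3 Cyp2a, 5 Cyp2b, 13 Cyp2c, 9 Cyp2d, 1 Cyp2e, 5 Cyp2j and 7 Cyp3a genes, and 8 genes of other subfamilies (Cyp1b1, Cyp2f2, Cyp2g1, Cyp2r1, Cyp2s1, Cyp2t4, Cyp2u1 and Cyp2w1). Symbols with a suffix, such as Cyp3a41b, do not follow the rule and were left out. The array has no spot under the symbols Cyp2a5, Cyp2c40 and Cyp2c69, which are not analysed here.

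The study asked whether overexpression of the growth arrest gene Gas1 alters liver tumours that the carcinogen diethylnitrosamine (DEN) induces, and what it does to gene expression. All animals were male mice of the outbred CD1 stock. Group C (Control, 3 mice) was injected with saline and later with empty plasmid, group T (DEN, 4 mice) with DEN and empty plasmid, and group G (Gas1, 6 mice) with DEN and the plasmid pcDNA3/CAG-HAGas1, in which the CAG promoter drives an HA-tagged Gas1. DEN was given intraperitoneally at day 15 after birth, at 25 µg per g of body weight. Each group also underwent hydrodynamic gene delivery, the injection of 50 µg of plasmid in a large volume of fluid, weekly between weeks 28 and 34, and RNA was prepared from livers removed at week 35. The records of the samples give another age, and the study's methods are followed here. This delivery transfects a part of the liver cells, near blood vessels, so group G is a mixture of transfected and other cells. As whole liver was used, fewer cells of a type and less RNA per cell cannot be told apart.

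Cytochromes P450 sit in the endoplasmic reticulum and receive their electrons from P450 reductase (Por) and cytochrome b5. Their transcription in hepatocytes follows receptors that sense foreign compounds: the aryl hydrocarbon receptor Ahr for Cyp1a genes, the constitutive androstane receptor (Nr1i3) mainly for Cyp2b genes and the pregnane X receptor (Nr1i2) mainly for Cyp3a genes. Many are most abundant in the hepatocytes around the central vein, and several mouse genes are transcribed more in one sex than in the other under the control of growth hormone. DEN itself becomes a carcinogen only after oxidation by P450 enzymes, chiefly Cyp2e1.

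Some close relatives in this set have almost the same sequence upstream of the gene. Both members of each pair below are shown with the bases before their RefSeq transcription start (GRCm38.p6, 5′ to 3′), and capitals mark the bases that differ within the pair. The pair Cyp2b13 (chr7:26061245-26061494, plus strand) and Cyp2b9 (chr7:26173159-26173408, plus strand) shares 248 of 250 bases.
Cyp2b13: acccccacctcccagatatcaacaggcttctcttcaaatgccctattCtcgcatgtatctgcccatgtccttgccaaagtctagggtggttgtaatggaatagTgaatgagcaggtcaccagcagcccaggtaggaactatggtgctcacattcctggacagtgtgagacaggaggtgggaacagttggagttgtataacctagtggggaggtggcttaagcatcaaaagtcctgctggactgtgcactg
Cyp2b9: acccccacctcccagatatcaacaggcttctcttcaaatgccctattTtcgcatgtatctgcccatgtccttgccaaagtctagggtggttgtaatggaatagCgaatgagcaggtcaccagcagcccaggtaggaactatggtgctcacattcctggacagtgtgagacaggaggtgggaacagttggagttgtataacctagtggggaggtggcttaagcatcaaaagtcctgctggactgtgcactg
The pair Cyp3a16 and Cyp3a44 shares 236 of 246 aligned bases. Its last 120 bases are shown because 1 of the 5 differences there lies in the letters CAAAGTCCA, which stand in Cyp3a16 (chr5:145469728-145469847, minus strand) and not in Cyp3a44 (chr5:145805875-145805994, minus strand).
Cyp3a16: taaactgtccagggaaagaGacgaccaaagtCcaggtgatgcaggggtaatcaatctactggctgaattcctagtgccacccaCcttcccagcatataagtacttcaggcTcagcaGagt
Cyp3a44: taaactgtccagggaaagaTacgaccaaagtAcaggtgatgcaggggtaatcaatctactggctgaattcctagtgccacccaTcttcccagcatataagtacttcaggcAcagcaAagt
On the arrays Cyp3a16 was well above background in every mouse and Cyp3a44 on none of the arrays. Whether these letters bear on the signal was not tested. Cyp2c65 also holds them and was well above background on none of the arrays. The other members that hold them were well above background on all arrays. The same letters, shown in capitals, stand in the 250 bases before the start of Cyp3a11 (chr5:145879855-145880104, minus strand), the main Cyp3a gene of the results below.
Cyp3a11: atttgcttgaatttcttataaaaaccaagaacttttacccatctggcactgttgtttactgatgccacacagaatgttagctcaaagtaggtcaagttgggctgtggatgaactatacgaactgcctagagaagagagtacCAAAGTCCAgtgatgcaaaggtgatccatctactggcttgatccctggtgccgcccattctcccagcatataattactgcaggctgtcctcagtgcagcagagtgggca

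CAAAGTCCA is a sequence that the liver factor HNF4 binds, and it was sought with other motifs on both strands in the 250 bases before the start of 45 members that have a RefSeq promoter. It was held by 6 members (13.3%: Cyp2c65, Cyp2c67, Cyp2c68, Cyp2c70, Cyp3a11 and Cyp3a16), against 0.384% of all 32851 promoters. The letters AGGTCA, a core that nuclear receptors bind, were in 15 members (33.3%) against 14% of all promoters, and AGTTCA, the other spelling of that core, in 3 (6.67%) against 11.8%. GCGTG, the core bound by Ahr, was in 7 members (15.6%) against 28.2%. The STAT5 motif TTCNNNGAA was in none of the 45, against 7.02%, and TTATGCAA, bound by CEBP factors, in 4 (8.89%) against 0.694%. TATAAA was in 22 (48.9%) against 12.4%. These are matches of letters, and near-identical relatives count more than once.

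Total liver RNA was labelled with Cy3 and hybridised to 15 single-colour arrays (4 for C, 5 for T, 6 for G). Arrays 3 and 4 of group C carry a single RNA code, as do arrays 4 and 5 of group T. The counts of mice given here rest on these codes, while the study's PCR names 4 control mice. Each such pair of arrays was averaged, which leaves 13 mice. Within these pairs the P450 genes above background on all arrays differed by a median of 0.09 on the log2 scale, and at most by 0.49 in C and 0.86 in T, both for Cyp3a16. Single-colour arrays have no read depth. Of 59305 spots per array that are not controls, between 15707 and 29765 were well above background, and the lowest number was that of mouse 2 of group C. The mouse Gas1 probe did not separate group G: its log2 signal was 6.30 to 6.67 in group C, 6.41 to 6.61 in T and 6.49 to 6.79 in G (adjusted p = 0.77 for G against T in limma). Whether this probe can read the transcript of the plasmid is not known here. All levels below are log2 signals after background correction and quantile normalization, all differences are differences of such values, and p-values are those of limma, adjusted by Benjamini-Hochberg over all 22032 genes, with a threshold of 0.05. The p-values measure the spread between these mice.

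Of the 53 genes, 38 were well above background on all 15 arrays. Another 8 never were (Cyp1b1, Cyp2b19, Cyp2b23, Cyp2c55, Cyp2c65, Cyp2c66, Cyp2w1 and Cyp3a44), and 7 were on some arrays only (Cyp1a1, Cyp2a22, Cyp2b9, Cyp2b13, Cyp2g1, Cyp2s1 and Cyp2t4). The hepatocyte markers Cyp2e1 and Cyp1a2 were well above background on every array. Of 69 probes, 61 match RefSeq transcripts of a single gene, 7 match those of several genes and 1 matches none, so a symbol can stand for more than its own gene. The symbol Cyp2c44 is the gene now called Cyp2c23.

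The question of the first comparison is what the DEN treatment did. In group T the P450 genes of the Cyp3a, Cyp2b, Cyp2c and Cyp2d subfamilies had, for the most part, lower means than in group C, and the differences were largest for Cyp2b10 (fold 4.21), Cyp3a11 (3.27), Cyp3a16 (3.21), Cyp2c39 (2.72) and Cyp2c44 (2.64), which were lower under each of the 5 scalings tried. The test was passed by Cyp2c38 alone, with a fold of 1.81. Under quantile normalization the mean of group T lay below that of group C in 40 of 53 genes. Of all genes, 52.1% had the higher mean in T. The median log2 difference was −0.20 against 0.01 over all genes. Under median scaling 13 of 53 were lower and the median was 0.27, against 0.12 over all genes. At an adjusted p under 0.05 the 1 gene is 1.89% of the members, against 1.17% of all genes that were lower and 1.22% that were higher. At an unadjusted p under 0.05, 15 members were lower (28.3%, against 9.48% of all genes) and 1, Cyp2c66 at background, was higher (1.89%, against 10.8%), but median scaling turns this into 0 lower and 7 higher, where 1.3% of all genes were lower and 31.8% higher. All mice of group T lay below all mice of group C in 8 members (15.1%, against 8.61% of all genes), which were Cyp2a22, Cyp2c38, Cyp2c39, Cyp2d11, Cyp2d26, Cyp2j8, Cyp3a11 and Cyp3a16, and above them in 2 (3.77%, against 10.5%), Cyp2a4 and Cyp2c70. Of the former, Cyp2a22 was well above background on 1 array of group C and 0 of T, and Cyp2j8 had values in only 2 mice of T.

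The second comparison asks what the Gas1 plasmid did in livers that had received DEN. No P450 gene passed the test in limma or in the methods' own test, with equal or with unequal variances, and 0.0272% of all genes were higher and 0.0999% lower in limma. The largest differences were those of Cyp3a11 (fold 3.68), Cyp3a16 (3.46), Cyp2c44 (2.35) and Cyp2c39 (2.06), with higher means in group G under each of the 5 scalings. Group G had the higher mean in 35 of the 53 genes (against 46.1% of all genes), with a median difference of 0.14 against −0.01 over all genes. Under median scaling these were 30 genes and 0.013 (against −0.05), and on slide 2 alone 31 genes and 0.046. Unadjusted, 8 members were higher (15.1%, against 4.13% of all genes) and 2 lower (Cyp2c70 and Cyp2j5, 3.77%, against 6.73%) in limma. The methods' test with equal variances gave 7 higher and 0 lower, against 3.87% and 6.58% of all genes. With unequal variances it gave 5 higher and 1 lower, against 3.91% and 6%. Cyp3a11, Cyp3a16 and Cyp2d11 were higher in every mouse of group G than in any of group T (5.66%, against 1.09% of all genes). Cyp2j5 was the 1 gene lower throughout (1.89%, against 2.03%), with no value in 1 mouse of group T and 2 of group G. Group T enters both of these comparisons, so its low values bear on each.

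In the third comparison, of group G with group C, no member passed the test in limma or in either form of the methods' test, against 0.177% of all genes higher and 0.25% lower in limma. Unadjusted, 2 members were higher (Cyp2s1 and Cyp3a25, 3.77%, against 6.17%) and 10 lower (18.9%, against 7.02%), and under median scaling 13 were higher and 1 lower, where 28.7% of all genes were higher and 1.32% lower. The groups did not overlap in 0 members on the high side (against 2.85% of all genes) and in 2 on the low side (3.77%, against 3.01%), Cyp2j8 and Cyp2d40.

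**Figure D1:**
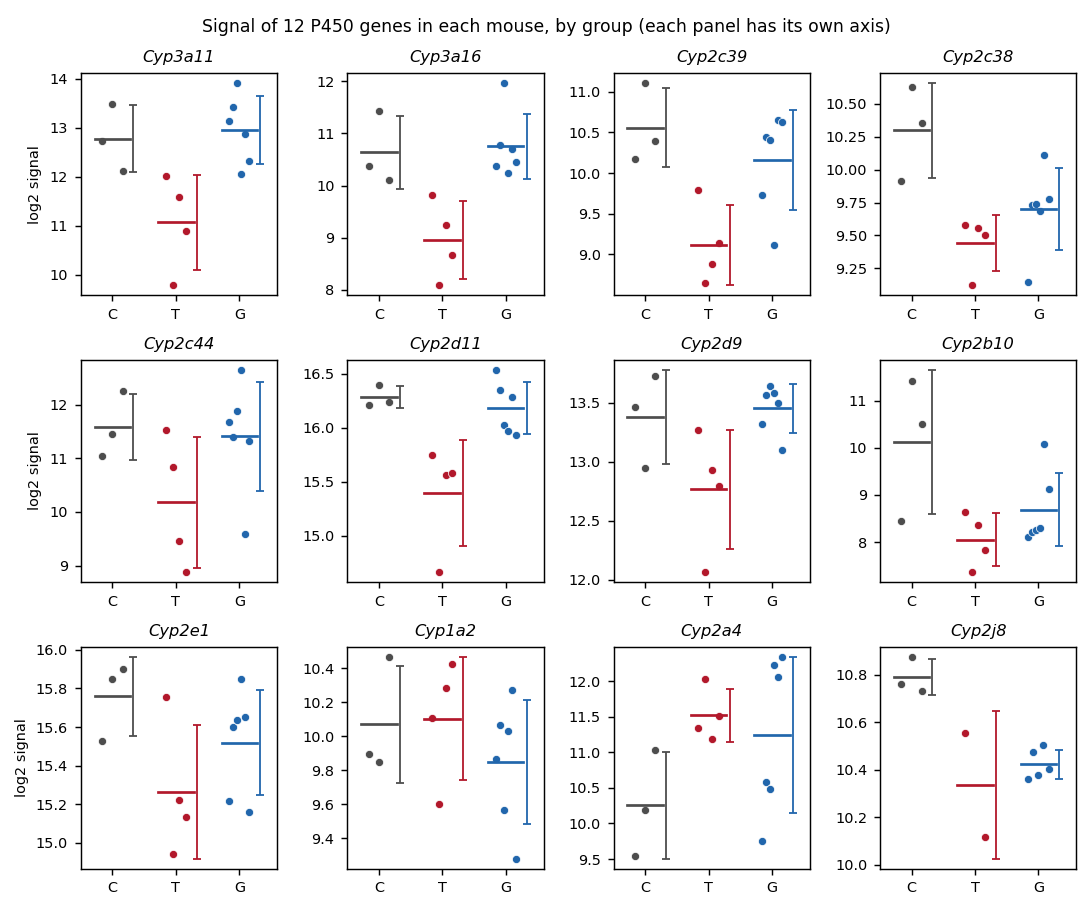
Log2 signal (y axis, its own range in each panel) of 12 P450 genes in each mouse of the groups C (3 mice), T (4) and G (6). Points are mice, horizontal lines are means and bars at the side show the SD; in Cyp3a11, Cyp3a16 and Cyp2d11 all points of group T lie under those of both other groups, under quantile normalization, and for Cyp2d11 the mean of T is 0.27 above that of C under median scaling.

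The Cyp3a enzymes oxidise steroids and a large share of drugs, and Cyp3a11 is the main member in adult mouse liver. Cyp3a11 read 12.73, 13.49 and 12.12 in the 3 mice of group C and 12.01, 9.80, 11.59 and 10.89 in the 4 of group T. In group G it ranged from 12.06 to 13.91 with a median of 13.001. Every mouse of group T was below every other mouse, though its highest value, 12.01, was near the lowest of group G, 12.06. The difference of T from C was −1.71 (SE 0.53, 95% CI −2.86 to −0.55, adjusted p = 0.10), and that of G from T was 1.88 (SE 0.45, 95% CI 0.90 to 2.86, adjusted p = 0.12). Neither passed the test. Group G against group C gave 0.17 (SE 0.49, adjusted p = 0.92), with a 95% CI from −0.90 to 1.24. Over the 5 scalings the difference of T from C ran from −1.77 to −0.70, the latter under median scaling, and that of G from T from 1.73 to 1.94.

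Cyp3a11 has a pair of probes. The second is drawn from the mature transcript at chr5:146672058-146673925 (mm9, minus strand), across an exon junction, and its sequence also matches transcripts of Cyp3a41a, Cyp3a41b and Cyp3a44.
Cyp3a11 probe: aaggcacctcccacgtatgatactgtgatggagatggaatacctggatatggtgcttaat
The probe that matches Cyp3a11 alone (chr5:146666237-146666296, mm9, minus strand) gave −1.70 for T against C and 1.82 for G against T, and the shared probe gave −1.71 and 1.94. The probes thus differed by far less than their standard errors, of 0.43 to 0.56.

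Cyp3a16 is known as a gene of fetal and female liver, and it is described here because its values were seen to resemble those of Cyp3a11. Its log2 signal was 10.37, 11.44 and 10.12 in C and 9.83, 8.10, 9.24 and 8.68 in T. In group G the lowest mouse read 10.23, the median was 10.58 and the highest 11.96. Groups C and G overlapped and group T lay under both. The difference of T from C was −1.68 (SE 0.46, adjusted p = 0.070) and that of G from T 1.79 (SE 0.39, adjusted p = 0.10), the lowest p of any member in that comparison. Leaving out mouse 1 of group T, the highest of its group, gave adjusted p-values of 0.039 and 0.042. Of the 13 fits that left out a mouse, 11 and 12 did not pass the test, with adjusted p-values up to 0.20 and 0.27. Under median scaling the differences were −0.74 and 1.69.

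The other Cyp3a genes did not follow in the same degree, and were named after their values were seen. For Cyp3a59 the difference of T from C was −0.37, or 0.29 under median scaling, and that of G from T was 0.78 (SE 0.23, adjusted p = 0.20). Its probes disagreed in size: the probe at chr5:146920638-146920697 (mm9, plus strand) gave 1.29 (SE 0.27, adjusted p = 0.088) for G against T, and the other, which was not above background on all arrays, gave 0.22. The former lies in the coding region, and the capitals in it encode the loop that holds the haem-binding cysteine, the feature common to all P450 enzymes.
Cyp3a59 probe: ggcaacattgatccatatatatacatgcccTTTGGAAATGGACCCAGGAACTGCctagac
Cyp3a25 averaged 10.98 ± 0.28 in group C, 11.14 ± 0.47 in T and 11.68 ± 0.52 in G (SD, n = 3, 4 and 6), with a difference of 0.54 for G against T (adjusted p = 0.49). Cyp3a57 averaged 9.82 ± 0.19, 9.78 ± 0.64 and 10.41 ± 0.53. Cyp3a13 averaged 8.17 ± 0.27, 7.62 ± 0.36 and 7.91 ± 0.39. Of the 7 Cyp3a genes, 5 had a lower mean in T than in C, with a median of −0.37, but 2, Cyp3a11 and Cyp3a16, under median scaling, with a median of 0.10. The mean of G was above that of T in 6, with a median of 0.64, or 0.53 under median scaling. None of them passed the test.

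**Figure D2:**
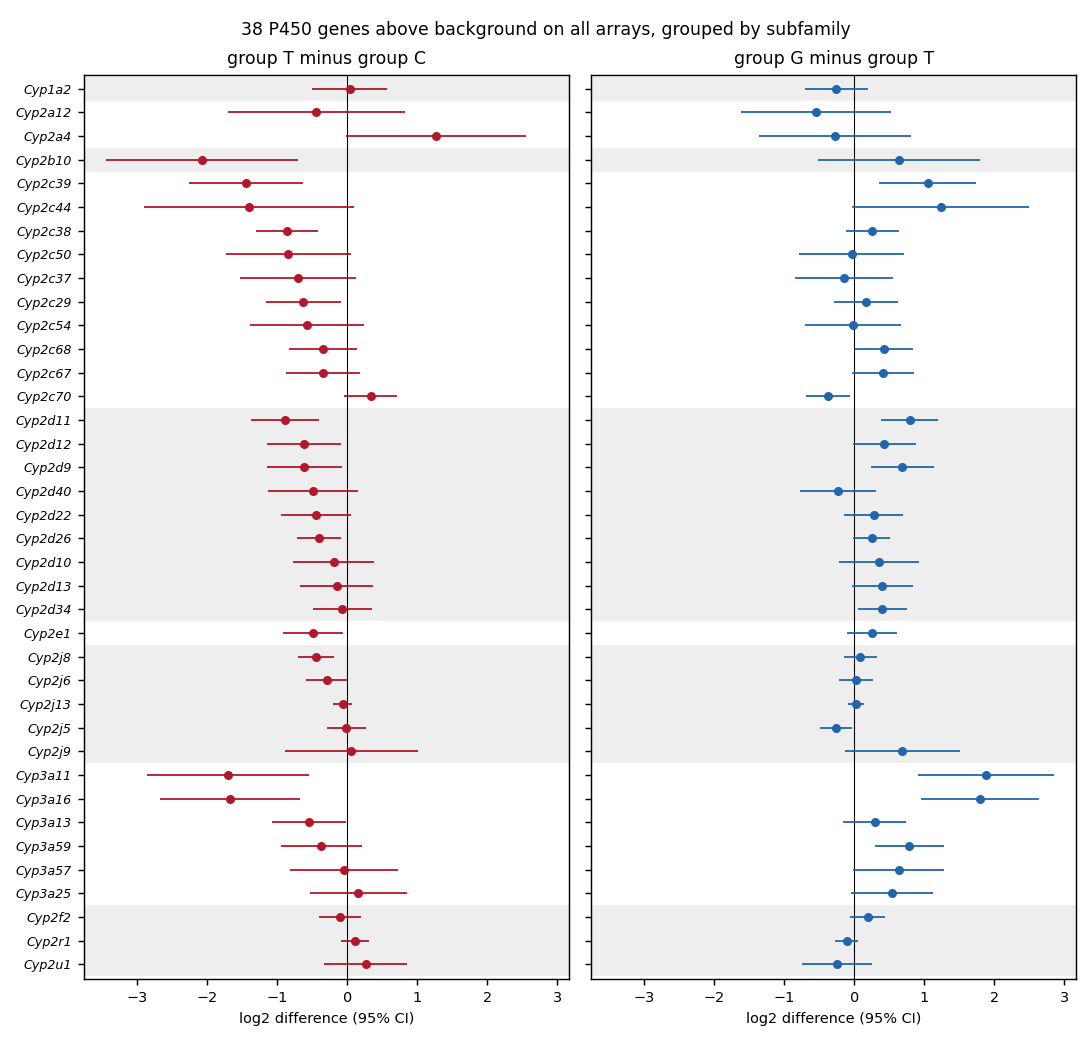
Log2 differences (x axis) with 95% confidence intervals of the 38 P450 genes above background on all 15 arrays, by subfamily, for T against C (left) and G against T (right). Under quantile normalization, all 9 Cyp2d genes lie under 0 on the left and 8 on the right lie above it, and Cyp3a11 and Cyp3a16 lie far from 0 on both sides; on the left all 9 Cyp2d genes move above 0 under median scaling.

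The Cyp2c enzymes act on drugs, arachidonic acid and steroids, and the subfamily is the largest of mouse. Cyp2c38 was the member that passed the test. Its log2 signal was 9.92, 10.63 and 10.35 in group C, 9.58, 9.12, 9.56 and 9.50 in T and 9.15 to 10.11 in G, with a median of 9.74. Every mouse of group T was lower than every mouse of group C, and group G overlapped both. The difference of T from C was −0.86 (SE 0.20, 95% CI −1.30 to −0.41, adjusted p = 0.049), that of G from T 0.26 (SE 0.17, adjusted p = 0.63) and that of G from C −0.60 (adjusted p = 0.20). The call was lost when any of 10 of the 13 mice was left out, and held without mouse 1, 5 or 6 of group G, with adjusted p-values from 0.029 to 0.14. Its brighter probe (chr19:39465415-39465474, mm9, minus strand) gave −1.35 (adjusted p = 0.047) and its dimmer probe, above background on some arrays only, gave −0.36. Under median scaling the gene differed by −0.24.

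Cyp2c39, which hydroxylates retinoic acid, read 10.18, 11.10 and 10.39 in C and 9.79, 8.65, 8.88 and 9.14 in T. In group G it read 9.12 at the lowest, 10.42 at the median and 10.65 at the highest. Group T lay below all of group C. In group G, mice 1 and 4 (9.73 and 9.12) lay within the range of group T and the other 4 were at 10.41 or above. The difference of T from C was −1.44 (SE 0.38, adjusted p = 0.063) and that of G from T 1.04 (SE 0.32, adjusted p = 0.23). Under median scaling these were −0.49 and 0.94.

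Cyp2c44, an epoxygenase of arachidonic acid, varied widely within the groups. It read 11.04, 11.45 and 12.25 in group C, 11.53, 10.84, 9.46 and 8.88 in T and 9.58 to 12.64 in G (median 11.53). The groups overlapped, and the differences of −1.40 (SE 0.69, adjusted p = 0.28) and 1.23 (SE 0.58, adjusted p = 0.47) had 95% CI of −2.90 to 0.10 and −0.03 to 2.499. Cyp2c29, an abundant gene that Nr1i3 controls, averaged 13.70 ± 0.37 in group C, 13.08 ± 0.46 in T and 13.24 ± 0.29 in G (SD, n = 3, 4 and 6). Its difference of T from C was −0.63 (SE 0.25, adjusted p = 0.18), or 0.37 under median scaling. Cyp2c37, Cyp2c50 and Cyp2c54, chosen after their values were seen, had differences of T from C of −0.70, −0.84 and −0.58 and differences of G from T of −0.15, −0.04 and −0.02, so that their means in group G stayed beside those of group T. Under median scaling their differences of T from C turned to 0.052, 0.15 and 0.16. None of these 3 genes passed the test.

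Cyp2c70, the enzyme that makes muricholic acids in mice, was singled out because it differed in the other direction. It read 13.86, 13.60 and 13.86 in group C, 14.33, 13.92, 14.15 and 14.04 in T and 13.32 to 14.17 in G (median 13.75). Its difference of T from C was 0.34 (SE 0.17, adjusted p = 0.31) and that of G from T −0.38 (SE 0.15, adjusted p = 0.38). Median scaling gave 1.41 for T against C and is the 1 setting in which this gene passed the test. Of the 13 Cyp2c genes, 10 had a lower mean in T than in C (median −0.58) under quantile normalization, and 4 (median 0.12) under median scaling. For G against T, 7 had the higher mean in G (median 0.0023), and 6 (median −0.067) under median scaling.

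The Cyp2d enzymes form a cluster on chromosome 15 and act on amine drugs and steroids. Cyp2d11 read 16.21, 16.40 and 16.23 in group C, 15.75, 14.66, 15.56 and 15.58 in T and 15.93 to 16.53 in G (median 16.15). All mice of group T were below all mice of groups C and G. The difference of T from C was −0.89 (SE 0.22, adjusted p = 0.054) and that of G from T 0.79 (SE 0.19, adjusted p = 0.12), but under median scaling the former was 0.27 and the latter 0.51. Without mouse 2 of group T they were −0.65 and 0.55.

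Cyp2d9, a male-predominant steroid 16-alpha-hydroxylase in many strains, read 13.47, 12.95 and 13.72 in C and 13.27, 12.07, 12.93 and 12.80 in T. In group G it ranged from 13.10 to 13.64 with a median of 13.53. The groups overlapped, since mouse 2 of group C was under mouse 1 of group T. The differences were −0.61 (SE 0.25, adjusted p = 0.19), or 0.39 under median scaling, and 0.68 (SE 0.21, adjusted p = 0.23) for G against T. Each of the 9 Cyp2d genes had a lower mean in T than in C, with a median of −0.45 and a range from −0.89 (Cyp2d11) to −0.07 (Cyp2d34). Under median scaling each had a higher mean in T, as Cyp2d34 (0.019) and Cyp2d10 (0.024) also had with the 75th percentile. The mean of G was above that of T in 8 of 9, with a median of 0.40, and the exception was Cyp2d40 with −0.24. The probes of Cyp2d34 pointed in opposite directions for T against C, with 0.38 and −0.52. For Cyp2d10 there is no value in 5 of the 13 mice, because its spot carried an outlier flag there.

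**Figure D3:**
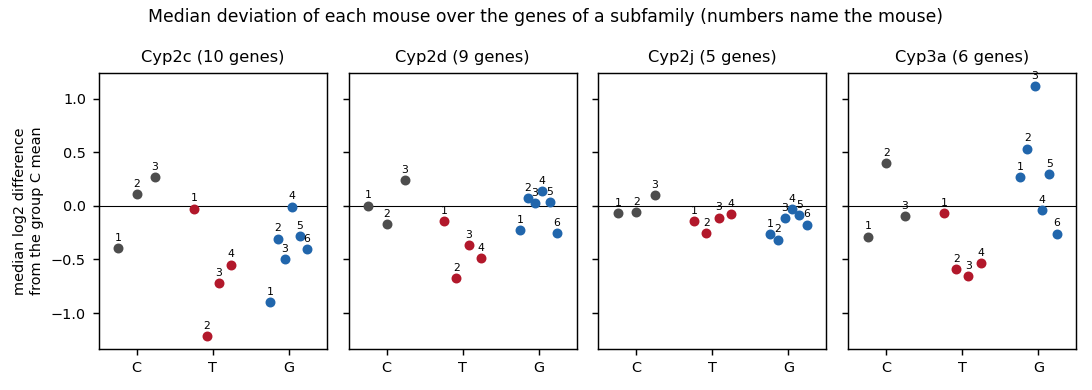
Median deviation of each mouse from the mean of group C (y axis, log2) over the genes of a subfamily that were above background on all arrays, with the number of genes in each panel title. Digits name the mouse; over the 9 Cyp2d genes mouse 2 of group T is lowest at −0.67, while over the 6 Cyp3a genes mouse 3 of group G is highest at 1.12.

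Mouse 2 of group T stood apart, and not in P450 genes alone. Over 7848 genes above background on all arrays, the SD of its log2 differences from the other arrays of group T was 0.33 to 0.44. Between arrays of different other mice of that group the SD was 0.23 to 0.33. Mouse 2 of group T had the lowest value of all 13 mice in 18 of the 34 P450 genes that were above background on all arrays and had values in all mice. How often this mouse was lowest over all genes was not counted. Its median deviation from the mean of group C over the P450 genes above background on all arrays was −0.71, against −0.08, −0.37 and −0.49 in mice 1, 3 and 4 of the group. Without it, the median difference of the 53 genes between T and C was −0.14, no member passed the test, and that of Cyp3a11 was −1.28 (adjusted p = 0.19). The slides, of which each held arrays of all groups, also differed in size. On slide 1, with mouse 2 of group T, the differences of T from C and of G from T were −2.49 and 2.45 for Cyp3a11, −2.30 and 2.28 for Cyp3a16, −1.83 and 1.13 for Cyp2c39, and −1.19 and 0.84 for Cyp2d11. On slide 2 they were −0.91 and 1.63, −1.02 and 1.51, −1.03 and 1.01, and −0.59 and 0.77. The directions were thus equal on both slides for these 4 genes, which had large differences over all mice. Mouse 3 of group C and mouse 4 of group T had an array on each slide, so the slides share RNA and are not independent. The median of the 53 genes for T against C was −0.34 on slide 1 and −0.14 on slide 2, and for G against T 0.33 and 0.05.

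The Cyp2b enzymes are the classic targets of phenobarbital and of the receptor Nr1i3. Cyp2b10 read 8.44, 11.42 and 10.50 in group C, 8.63, 7.37, 8.37 and 7.83 in T and 8.12 to 10.08 in G (median 8.28). Mouse 1 of group C was as low as the mice of group T, so the groups overlapped. The difference of T from C, the largest of all members, was −2.07 (SE 0.63, 95% CI −3.44 to −0.70, adjusted p = 0.097). It depended on single mice of group C, with −2.91 (adjusted p = 0.042) without mouse 1 and −1.42 without mouse 2. Slide 1 gave −3.36 and slide 2 −1.21, and median scaling −1.22. Group G differed from T by 0.64 (SE 0.53, adjusted p = 0.72) and from C by −1.44 (SE 0.59, adjusted p = 0.31).

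Cyp2b13 and Cyp2b9, the pair with near-identical upstream sequences shown above, are both female-predominant. They had the same ordering of mice in group C, which was seen before they were picked. Cyp2b13 read 5.95, 9.49 and 7.57 in group C, 6.62, 6.49, 7.08 and 6.31 in T and 6.17 to 8.39 in G. Cyp2b9 read 6.21, 8.01 and 7.14 in group C, 6.36, 6.47, 6.39 and 6.26 in T and 6.01 to 7.01 in G. In both genes, as in Cyp2b10, mouse 1 of group C was the lowest of its group and mouse 2 the highest, and in G mice 5 and 6 were the highest. The differences of T from C were −1.05 (adjusted p = 0.45) and −0.75 (adjusted p = 0.21), and neither gene was above background on all arrays. Without mouse 2 of group C the difference of Cyp2b13 was −0.14. Cyp2b19 and Cyp2b23 stayed at background.

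**Figure D4:**
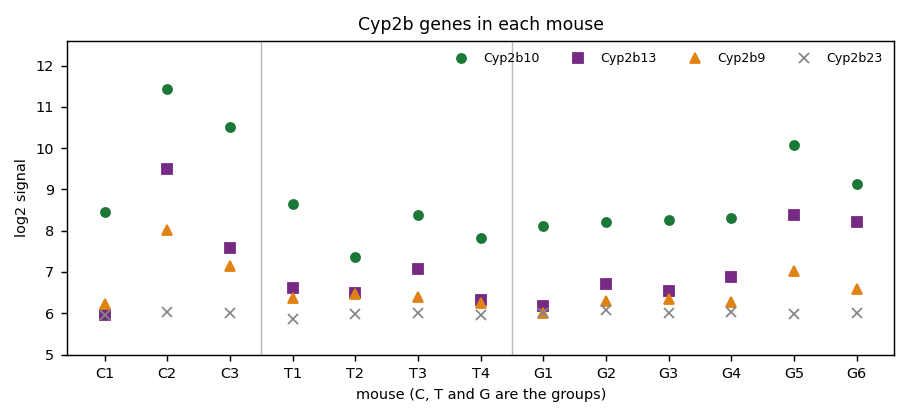
Log2 signal (y axis) of Cyp2b10, Cyp2b13, Cyp2b9 and Cyp2b23 in each of the 13 mice (x axis). Mouse 2 of group C is the highest for Cyp2b10 (11.42), Cyp2b13 (9.49) and Cyp2b9 (8.01), mouse 1 of that group is at 8.44, 5.95 and 6.21, and Cyp2b23 stays near 6 throughout.

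Cyp2e1, the enzyme that activates DEN, and Cyp1a2, which oxidises caffeine and aromatic amines, are both genes of the hepatocytes around the central vein. Cyp2e1 read 15.52, 15.85 and 15.90 in group C, 15.75, 14.94, 15.22 and 15.14 in T and 15.16 to 15.85 in G (median 15.62). In group T, mice 2, 3 and 4 were below all of group C, and mouse 1 lay within it. Group T differed from C by −0.50 (SE 0.20, fold 1.41, adjusted p = 0.18), or 0.62 under median scaling. Group G differed from T by 0.26 (SE 0.17, adjusted p = 0.62), or 0.0005 under median scaling and −0.035 with the 75th percentile. Cyp1a2 averaged 10.07 ± 0.34 in group C, 10.10 ± 0.36 in T and 9.85 ± 0.36 in G (SD, n = 3, 4 and 6). Its differences were 0.03 (SE 0.25, adjusted p = 0.96) and −0.26 (SE 0.21, adjusted p = 0.70), with a 95% CI of −0.50 to 0.57 for T against C, where median scaling gave 0.98. Cyp1a1, which Ahr induces, was well above background on 1 array of group C and on none of the others. Its measured means of 6.12, 6.04 and 5.96 in groups C, T and G lay near background and did not pass the test (adjusted p = 0.52 for T against C and 0.25 for G against C), and on slide 2 the mean of T was 0.051 above that of C.

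Cyp2a4 is a female-predominant steroid 15-alpha-hydroxylase. It read 9.54, 10.18 and 11.04 in group C, 11.35, 12.04, 11.19 and 11.51 in T and 9.76 to 12.34 in G (median 11.32). All mice of group T were above those of group C, under each of the 5 scalings by mean, and group G overlapped both, with 3 mice from 9.76 to 10.59 and 3 from 12.06 to 12.34. Group T differed from C by 1.27 (SE 0.59, fold 2.41, adjusted p = 0.25) and that of G from T −0.28. Both probes also match transcripts of Cyp2a5, the coumarin hydroxylase that takes part in nitrosamine activation, so the signal can be that of either gene. The probe at chr7:27098659-27099724 (mm9, plus strand), across an exon junction, is shown with the start of the haem-binding loop in capitals.
Cyp2a4 probe: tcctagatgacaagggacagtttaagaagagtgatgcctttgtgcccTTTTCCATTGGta
Cyp2a12, a bile acid and steroid hydroxylase, ranged from 12.92 to 13.42 in group C, from 11.85 to 13.62 in T and from 11.16 to 13.64 in G, and the groups overlapped. Its differences were −0.44 (SE 0.58, adjusted p = 0.73), or 0.55 under median scaling, and −0.54 (SE 0.49, adjusted p = 0.74).

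Of the Cyp2j genes, which make epoxides of arachidonic acid, Cyp2j8 had the largest difference of T from C. It read 10.76, 10.87 and 10.73 in group C, 10.56 and 10.12 in the 2 mice of group T that have a value, and 10.36 to 10.50 in the 5 of group G. The difference of T from C was −0.45 (SE 0.11, adjusted p = 0.069) and that of G from C −0.37 (SE 0.09, adjusted p = 0.13), but median scaling gave 0.61 for T against C. The difference of T from C was −0.67 without mouse 1 of group T and −0.23 without mouse 3, each of which leaves a single mouse of T. Cyp2j9 ranged from 7.17 to 7.78 in group C, from 7.16 to 7.77 in the 3 mice of group T that have a value and from 7.33 to 9.40 in group G, with differences of 0.058, or −0.10 under cyclic loess, and 0.69 (SE 0.38, adjusted p = 0.54 for G against T). Cyp2f2, the periportal member that activates naphthalene in the lung, averaged 15.13 ± 0.13, 15.02 ± 0.22 and 15.21 ± 0.20 in groups C, T and G, and its differences were −0.105 and 0.19. Median scaling gave 0.96 and 0.013, and 75th percentile scaling 0.068 and −0.018, for these. Cyp2u1, a fatty acid hydroxylase, gave 0.26 for T against C and −0.25 for G against T, with probes that differed in sign for T against C. The probe matched to Cyp2u1 gave 0.57, and the brighter probe, which matches no RefSeq transcript, gave −0.20. The average of both enters the median of the male-predominant members below. Cyp1b1, mostly an enzyme of other tissues, was well above background on none of the arrays.

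The genes that could steer or serve the P450 enzymes were taken as lists. Among 16 regulators of P450 transcription none passed the test in any comparison in limma, and at an unadjusted p under 0.05 there were 4 for T against C (all genes: 10.8% higher, 9.48% lower) and 3 for G against T (4.13% and 6.73%). Nr1i2, the receptor of the Cyp3a genes, gave 0.01 (SE 0.21) and 0.18 (SE 0.18) in these comparisons. Nr1i3 gave −0.54 (SE 0.34, adjusted p = 0.41; 0.29 under median scaling) and 0.47 (SE 0.28, adjusted p = 0.58), and Ahr −0.08, or 0.50 under median scaling and 0.09 from the processed signal, and 0.04. Of 12 genes for electron supply and haem synthesis, 1 passed the test for T against C, lower in T as were 1.17% of all genes, and none for G against T. That gene was Cpox, an enzyme of haem synthesis, which fell by 0.55 (SE 0.11, adjusted p = 0.024) from 10.65 to 10.85 in group C to 10.01 to 10.38 in group T, but was 0.43 higher in T under median scaling and passed the test in 8 of 13 fits that left out a mouse. Por gave 0.81 (SE 0.33, adjusted p = 0.19) and Alas1, the first enzyme of haem synthesis, 0.72 (SE 0.43, adjusted p = 0.39), both with higher means in T.

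Other targets of the same receptors numbered 12 on the array, and 2 of them passed the test with lower means in group T, against 1.17% of all genes. The aldehyde dehydrogenases Aldh1a1 and Aldh1a7 fell by 0.84 (adjusted p = 0.024) and 1.02 (adjusted p = 0.019), or gave 0.24 and −0.03 under median scaling, and neither of them passed the test for G against T, with 0.28 and 0.37. The median of the list was −0.24 for T against C and 0.26 for G against T, against 0.01 and −0.01 over all genes, and under median scaling it was 0.19 and 0.13. Of the 8 female-predominant P450 genes on the array 1 passed the test for T against C, Cyp2c38 again, against 1.17% of all genes that were lower. The median of the 8 genes was −0.95, with higher means in T for 2 of them, Cyp2a4 and the undetected Cyp3a44. Their median for G against T was 0.39. The 4 male-predominant members had medians of −0.08 and 0.06, and the 8 members of the central vein region −0.60 and 0.07. Under median scaling the female-predominant genes stayed lower in T, with a median of −0.47, while the male-predominant members gave 0.90 and those of the central vein region 0.27. Of 8 growth hormone regulators none passed the test in limma, and 4 were at an unadjusted p under 0.05 for T against C, as were 10.8% of all genes with a higher and 9.48% with a lower mean in T.

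Markers of tumour and of cell types moved with the groups as follows, and their part in the P450 values was not tested. Of the 6 liver tumour markers 4 passed the test for T against C, all higher (against 1.22% of all genes): Tff3 by 5.12, Afp by 2.47, Scd2 by 1.75 and Gpc3 by 0.49. Of 13 fits that left out a mouse, Tff3 passed the test in 13, Afp in 11, Scd2 in 7 and Gpc3 in 3. Gpc3 was also dim, at 5.93 to 5.96 in C and 6.25 to 6.85 in T. The summed signal of the 6 tumour markers was 449 to 529 in group C, 2192 to 9229 in T and 906 to 7096 in G, on the linear scale. The 6 hepatocyte markers summed to 657100 to 693200 in group C, 502200 to 644400 in T and 574800 to 653200 in G. Of them 1 passed the test for T against C, the thyroxine carrier Ttr, against 1.17% of all genes that were lower. It fell by 1.01 (adjusted p = 0.0059) in group T, or gave 0.18 under median scaling. Alb gave −0.37 (adjusted p = 0.16), Apoa1 0.54 and Serpina1a 0.18. Median scaling turned Alb to 0.37 and gave 1.67 for Apoa1 and 1.02 for Serpina1a, and cyclic loess turned Serpina1a to −0.20. Of 5 macrophage markers, 3 had a higher mean in T than in C, and 3 were above background on all arrays. Emr1 alone passed the test (1.22% of all genes were higher), with a rise of 0.31 (adjusted p = 0.026). It was dim, at 6.08 to 6.28 in C and 6.41 to 6.55 in T. Cd68 went the other way, with medians of 6.42 in C and 6.09 in T. The list's sum was 1364 to 1886, 1590 to 2109 and 1554 to 2401 in groups C, T and G. No stellate cell, endothelial, bile duct, lymphocyte or pancreas marker passed the test, and the sums of the first 4 of these lists overlapped between groups C and T. Pancreas markers summed to 597 to 638 in C and 645 to 1083 in T. None of these markers passed the test for G against T or G against C in limma. At an unadjusted p under 0.05 in limma, 4 of the 6 tumour markers were lower in G than in T, as were 6.73% of all genes.

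**Figure D5:**
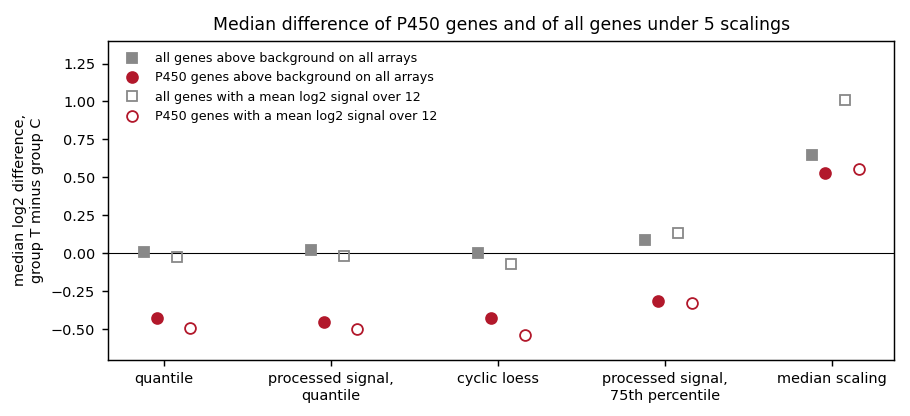
Median log2 difference of T from C (y axis) under 5 ways of scaling the arrays (x axis), for the P450 genes (circles) and all genes (squares). Filled symbols are genes above background on all arrays (38 P450 genes, 8493 genes) and open symbols genes with a mean log2 signal over 12 (15 and 634); the filled P450 medians run from −0.45 to −0.31 under 4 scalings and reach 0.53 under median scaling, where that of all genes is 0.65, and the open ones run from −0.54 to −0.325 and reach 0.55, where that of all genes is 1.01.

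The sign of the family's difference between T and C depended on the scaling of the arrays, but among genes above background the median of the P450 genes stayed under that of all genes in each scaling tried. Over all 53 members it did not, with 0.27 against 0.12 under median scaling. Among genes above background on all arrays, the medians for the 38 P450 genes and for all 8493 genes were −0.43 and 0.01 under quantile normalization, −0.43 and 0.0027 under cyclic loess, and −0.45 and 0.02 from the software's processed signal after quantile normalization. With the 75th percentile of each array as the reference they were −0.31 and 0.09, and with median scaling 0.53 and 0.65. These last settings also move the median of all 22032 genes, by −0.40 and 0.12. Among the 634 bright genes, with a mean log2 signal over 12, the medians under median scaling were 0.55 for 15 P450 genes and 1.01 for all. For G against T the members above background had medians of 0.27 under quantile normalization, 0.16 with the 75th percentile and 0.16 with median scaling, against −0.02, −0.13 and −0.09 for all genes above background.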

How the data were processed

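Gene expression was measured in whole liver on 15 single-colour 8x60K arrays. The authors deposited spot and local background intensity as read by Feature Extraction 10.7.3.1, before any normalization, along with other flags that mark spots well above background or as outliers. They also deposited log2 values for the whole series after normexp and quantile normalization. Probe positions are on mm9 per the file headers.

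The mean intensity was corrected with normexp (offset 50) and put on the log2 scale, spots with outlier flags were set to missing, and the 59305 spots that are not controls were quantile normalized. Spots of a probe were averaged, and the probes of a symbol were centred and averaged, which gave 22032 symbols from 29522 probes. Against the deposited log2 values the median absolute difference was 0.00292. No filter on dim probes was applied. A missing spot was not imputed, so Cyp2d10, Cyp2j5, Cyp2j8 and Cyp2j9 have fewer mice.

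The files name an RNA code for each array. Arrays of one code were averaged where the SD of their difference was under 0.7 times that of the closest other pair in the group, and the ratios were 0.501 for the pair of C and 0.617 for that of T. With R 4.3.3, version 1.17.8 of data.table and limma 3.58.1, the model fitted 1 mean per group over 13 mice, with lmFit and eBayes without trend, and p-values were adjusted by Benjamini-Hochberg over all symbols. The script was tested on simulated data. The few mice per group limit the precision. Sample titles share replicate numbers between groups, but same-numbered mice did not deviate together (correlations −0.313 to 0.249 over 8493 genes), so they were not treated as pairs.

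The members, the gene lists and the rule for named genes were chosen with earlier results of these data known. Named with values were Cyp2e1 and Cyp1a2, every member past the threshold, the member of each subfamily with the largest difference of T from C and of G from T, and a fixed set (Cyp1a1, Cyp1b1, Cyp2a4, Cyp2a5, Cyp2b10, Cyp2c29, Cyp2d9, Cyp2f2 and Cyp3a11). Of the lists, genes that passed the test were named, with Nr1i2, Nr1i3, Ahr, Por and Alas1. Other genes are said to be chosen after their values were seen. Of 53 symbols, 52 are current in RefSeq. Alternatives changed the background correction, the scaling, the offset, the source table, the dim filter, the handling of probes, arrays and slides, the replicate numbers, the test and the mice included. Sequences upstream of genes are from RefSeq (GRCm38.p6), where 45 members had one, and probe sequences are from the arrays' files.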

Additional observations from a re-analysis of the deposited data

Results flagged for a closer look

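In the groups of 4 or more mice, a mouse was marked when its gap to the nearest other mouse took up more of the group's range than Dixon's 95% critical value, which chance exceeds in about 1 of 20 groups. This marked 3 of 62 groups of values. Cyp2c38 in mouse 2 of group T was at 9.12, with the other mice of the group between 9.50 and 9.58. Cyp2d11 in the same mouse was at 14.66, with the others between 15.56 and 15.75. Afp, a liver tumour marker, was at 7.41 in mouse 1 of group T, with the others between 8.92 and 9.17.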

How the results depend on the processing

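For T against C, 1 gene passed the test. It was 0 with the processed signal after quantile normalization, with 75th percentile scaling, cyclic loess, the authors' table and the plain mean of the probes. It was also 0 on slide 2 alone, with the replicate numbers as a block and with both forms of the t-test. At an unadjusted p under 0.05 those forms, with equal and unequal variances, gave 6 and 5 lower members, against 7.92% and 5.6% of all genes. Each gave 2 higher, against 9.55% and 7.85%. The number past the test was 2 with limma-trend, 3 with an offset of 16 or with slide as a term, 4 with the filter on dim probes and 9 with the 15 arrays as separate mice. In these fits 2.3%, 2.5%, 3.63%, 6.39% and 8.84% of all genes tested passed, against 2.38% as reported. Leaving out each mouse gave 0 to 4 for T against C, 0 to 1 for G against T and 0 to 1 for G against C, and 15 separate arrays gave 3 for G against T (1.19% of all genes). The median difference of the genes between T and C was −0.40 with the processed signal, −0.51 with 75th percentile scaling, 0.27 with median scaling, −0.35 with the offset of 16, −0.43 with the dim filter, −0.32 with 15 arrays and −0.34 on slide 1. For G against T it was 0.013 with median scaling, 0.27 with the dim filter, 0.33 on slide 1 and 0.084 to 0.29 as mice were left out, and for G against C −0.35 with 75th percentile scaling and 0.45 with median scaling. The cause was not tested.

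Over 39 results for single genes, 1165 values were recomputed, and 1003 kept their direction and side of the threshold, 21 newly passed it, 106 no longer did and 35 changed sign. Under median scaling T against C turned to 0.37 in Cyp2c29, 0.27 in Cyp2d11, 0.39 in Cyp2d9, 0.62 in Cyp2e1, 0.96 in Cyp2f2, 0.61 in Cyp2j8, 0.24 in Aldh1a1, 0.43 in Cpox and 0.18 in Ttr, and G against T to −0.0050 in Cyp1b1. With 75th percentile scaling it turned to −0.33 in Cyp1b1 and 0.068 in Cyp2f2 for T against C and to −0.070 in Cyp1b1, −0.030 in Cyp2c29, −0.035 in Cyp2e1 and −0.018 in Cyp2f2 for G against T. The processed signal gave −0.46 for Cyp1b1 in G against T. Slide 1 gave −0.14 for Cyp1a2 and −0.084 for Cyp1b1 in T against C and 0.15 for Cyp2a12 in G against T, and slide 2 gave 0.051 for Cyp1a1 in T against C and −0.034 for Cyp1b1, −0.094 for Cyp2c29 and 0.046 for Cyp2u1 in G against T. The 15 arrays gave −0.0011 for Cyp1a2, the brightest probe −0.20 for Cyp2u1 in T against C and the plain mean 0.050 in G against T. Leaving out mice gave −0.076 to 0.23 for Cyp1a2 in T against C, −0.063 to 0.070 for Cyp1b1, −0.50 to 0.018 for Cyp2a4 and −0.041 to 0.32 for Cyp2c29 in G against T. With the replicate numbers as a block no member passed the test in any comparison, and Cyp1a2 changed sign, to −0.044 for T against C. The numbers do not pair the mice. The number of mice, 3 in group C, limits what these tests can call, and 15 of the 53 genes were not above background on all arrays.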
